A study of Homo sapiens with 1 sample.

Results

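Broad accessible peaks were examined in 786-O, a cell line established from a human clear cell renal cell carcinoma (ccRCC), here with an empty vector as the control of an overexpression study. ATAC-seq, which cuts and tags open DNA with the transposase Tn5, gave the peak list of 1 library without a replicate. The peak names in the list carry the tag WT, whereas the label gives the empty vector, and the label was followed. The study set this control beside cells overexpressing DPF3a, an isoform of the SWI/SNF subunit DPF3. That library is not analysed here, so no comparison between treatments was made and no p-value is given. A peak was chosen by its measured width: it had to span at least 2000 bp on chromosomes 1 to 22. Of the 86239 autosomal peaks, 2528 (2.93%, 95% interval 2.82 to 3.05) were broad by this rule. The complete list held 88676 peaks. For comparison, 13776 autosomal peaks spanned 1000 bp to under 2000 bp (the middle class) and 69935 were narrower than 1000 bp (the narrow class). Since width chose the peaks, their widths and heights are described below without any test. Intervals in parentheses are exact (Clopper-Pearson) 95% intervals and cover counting error only, as regions of 1 library are no replicates.

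A short ATAC-seq peak usually marks a single nucleosome-free stretch, bound by transcription factors or by the initiation machinery. A peak of several kilobases joins several such stretches, often across the start of a CpG-rich gene and into its transcribed part. Wide accessible or acetylated domains are known from genes of cell identity, from immediate early genes and from enhancer clusters. In clear cell renal carcinoma, loss of VHL stabilises the hypoxia-inducible factors, and many such cells show a mesenchymal shape with high expression of vimentin.

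Peaks at marker genes were first compared with the label of the cells. Of the renal markers, PAX2, PAX8 and CDH16 had a transcription start site (TSS) in a peak of any width, whereas LHX1 and CA9 had none. Of these genes only PAX8, which encodes a kidney lineage factor, had a TSS in a broad peak, and it was a TSS other than that of its canonical transcript. All 3 mesenchymal markers had a TSS in a broad peak. The peaks measured 4113 bp at VIM, which encodes vimentin, 3674 bp at CDH2, which encodes N-cadherin, and 2301 bp at FN1, which encodes fibronectin. These 3 also belong to the longer list of epithelial-mesenchymal transition and cell movement genes described below. In that list 20 of 29 genes had no TSS in a broad peak. TWIST1, TWIST2, TAGLN and COL1A2 had none in any peak. Of 7 markers of blood, endothelial, liver and glial cells, only GFAP had a TSS in a peak, which spanned 850 bp, and none was in a broad peak.

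To show what lies under the summits, the reference sequence of the summit with 50 bases to each side is printed for the widest peak with a TSS, for the widest intergenic peak within 10 kb of a TSS and for the widest and next widest peaks over 10 kb from any TSS, taking peaks that overlapped no exon there. The coordinates are hg38 and the strand is plus. Capitals mark letters found by the motif search described below, on either strand. The windows are from the DUSP1 peak (chr5:172765363-172765463, in an intron of the lncRNA gene ENSG00000253736), an intergenic peak closest to TMEM44-AS1 (chr3:194572575-194572675), and the intergenic peaks closest to DNAH5 (chr5:14036168-14036268) and DNAJB12 (chr10:72320790-72320890).
DUSP1 peak: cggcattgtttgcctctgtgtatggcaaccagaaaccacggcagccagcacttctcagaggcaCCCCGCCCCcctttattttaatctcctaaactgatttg
TMEM44-AS1 peak: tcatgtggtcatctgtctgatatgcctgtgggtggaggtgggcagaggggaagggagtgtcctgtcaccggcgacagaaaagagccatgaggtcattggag
DNAH5 peak: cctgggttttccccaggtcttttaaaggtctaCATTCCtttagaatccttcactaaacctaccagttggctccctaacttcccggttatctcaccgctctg
DNAJB12 peak: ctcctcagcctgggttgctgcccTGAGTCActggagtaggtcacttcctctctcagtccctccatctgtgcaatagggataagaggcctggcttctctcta

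The DUSP1 window held the SP/KLF letters, the DNAH5 window the TEAD letters and the DNAJB12 window an AP-1 match. The TMEM44-AS1 window held none of the searched letters, which says nothing about the factors bound there.

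The broad peaks covered 6.53 Mb, or 10.9% of all bases in autosomal peaks. Their median width was 2384.5 bp (interquartile range 2163 to 2771 bp), and 5% of them were wider than 3803 bp. Most lay close to the minimum, since 1506 (59.6%) spanned less than 2500 bp. A further 582 spanned 2500 bp to under 3000 bp, 338 reached 3000 bp but not 4000 bp, 69 reached 4000 bp but not 5000 bp, and 33 reached 5000 bp or more. No break in the widths marked the threshold, as 232 peaks lay within 50 bp above it and 235 within 50 bp below it. Just inside, at exactly 2000 bp, were peaks at a TSS of BCAR3 (fold 26.3), in an intron of ENSG00000288755 near KLF6 (fold 16.0) and in the lncRNA gene ENSG00000288598 (fold 25.2). Just outside, 1 bp below the minimum, were the peak of SCARB2 and FAM47E (fold 24.7) and a peak in ZNF250 (fold 41.7), followed by a peak of 1998 bp in ABLIM1 (fold 37.6).

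The height of a peak was given as a fold, the pileup of reads at the summit plus 1 over the genome-wide background plus 1. The median fold of broad peaks was 37.6 (interquartile range 26.8 to 52.7), at a median pileup of 72 reads. It was 28.9 in the middle class and 8.76 in the narrow class. A peak ends where the pileup falls below a fixed level, so higher peaks tend to be called wider, and width and height are not independent. Among broad peaks alone the link was weak, with a Spearman rank correlation of 0.10 across 2528 peaks that share 1 library and its depth. The lowest broad peak had a fold of only 5.67 (2.99 to 9.99, a pileup of 10) and lay in an intron of DCBLD2. PLPPR3, TRIP10, PAX8-AS1 and IRF1 had the next lowest, with folds of 6.18, 6.18, 6.70 and 7.21. Wide and low peaks therefore existed, such as 3390 bp at PAX8-AS1.

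To see where broad peaks lie, the intervals were compared with the TSSs of GENCODE release 44. A total of 1899 broad peaks (75.1%, 73.4 to 76.8) contained at least 1 TSS, compared with 48.6% (47.7 to 49.4) of the middle class and 9.94% (9.72 to 10.2) of the narrow class. A wider interval has more room for a TSS, so the summit, a single position, was placed too. It fell in a promoter, from 1 kb upstream to 100 bp downstream of a TSS, in 64.1% of broad peaks (62.2 to 66.0), compared with 45.4% and 12.6% in the other classes. The difference was also present among peaks of equal height. Between folds of 30 and 50, summits at promoters made up 65.6% of broad peaks (62.5 to 68.6), 48.3% of the middle class (46.8 to 49.8) and 19.8% of the narrow class (18.4 to 21.2).

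**Figure D1:**
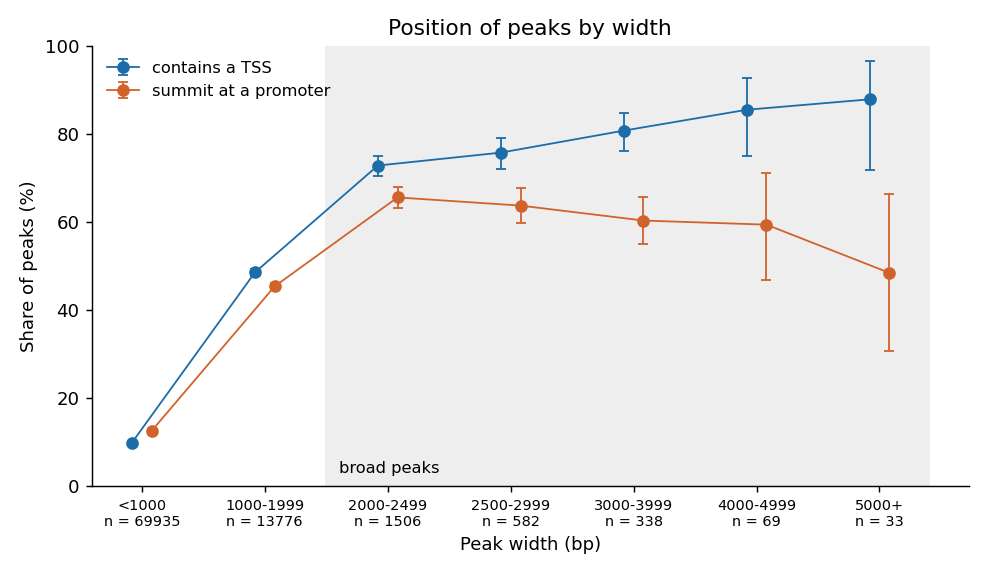
Share of peaks (y axis, percent) that contained a TSS (blue) or had the summit at a promoter (orange) by width in bp (x axis), with exact 95% intervals and the grey field marking broad peaks. The blue share reached 87.9% in peaks of 5000 bp or more, whereas the orange share was highest, 65.6%, in broad peaks under 2500 bp and 48.5% in the widest class.

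Within the broad peaks, the widest had a higher share containing a TSS and a lower share with the summit at a promoter, but in both measures the intervals overlapped. The share containing a TSS was 72.8% (70.5 to 75.1) under 2500 bp and 87.9% (71.8 to 96.6) at 5000 bp or more. The share with the summit at a promoter was 65.6% (63.1 to 68.0) and 48.5% (30.8 to 66.5), respectively. Of the covered bases, 49.2% were promoter, 7.33% exon, 33.8% intron and 9.62% intergenic, compared with 38.9% promoter in the middle class and 13.5% in the narrow class. The 629 broad peaks without a TSS comprised 452 in gene bodies (17.9%), 100 intergenic peaks over 10 kb from any TSS (3.96%) and 77 intergenic peaks closer to one. Any overlap with a gene placed a peak in the gene body class. Its summit could therefore be intergenic, as in the peaks at ACTB and DLX2 described below.

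The classes also differed in base composition, which the rule did not use. The median GC content of broad peaks was 57.7% (interquartile range 51.3 to 62.4), compared with 53.4% and 46.4% in the narrower classes. CpG-rich was used for a GC content of at least 50% with an observed-to-expected CpG ratio of at least 0.6, the composition of CpG island promoters. Of all broad peaks, 55.7% (53.7 to 57.6) were CpG-rich, compared with 38.5% (37.7 to 39.3) and 7.24% (7.05 to 7.44). Position separated the broad peaks sharply. CpG-rich were 73.1% (71.1 to 75.1) of those with a TSS, 2.43% (1.22 to 4.31) of those in gene bodies and 2% (0.243 to 7.04) of those over 10 kb away. The gene body peaks were not lower than those with a TSS, at median folds of 41.0 and 36.6, and the far peaks had a median fold of 46.1.

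To describe the shape at genes, the 1333 broad peaks with exactly 1 canonical protein-coding TSS were aligned on it. They reached a median of 1015 bp upstream (interquartile range 701 to 1401) and 1416 bp downstream (1096 to 1787). In 880 of them (66.0%, 63.4 to 68.6) the downstream part was the longer. A position 1000 bp downstream was covered by 79.9% of these peaks and one 1000 bp upstream by 50.9%. At 2000 bp the shares were 15.9% and 8.10%. The summit did not follow this asymmetry, since it lay upstream of the TSS in 72.8% (70.4 to 75.2), at a median of -116 bp. The asymmetry was not particular to broad peaks. The 4512 peaks of the middle class with exactly 1 such TSS reached a median of 582 bp upstream and 772 bp downstream, and 66.1% (64.7 to 67.5) had the longer part downstream.

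**Figure D2:**
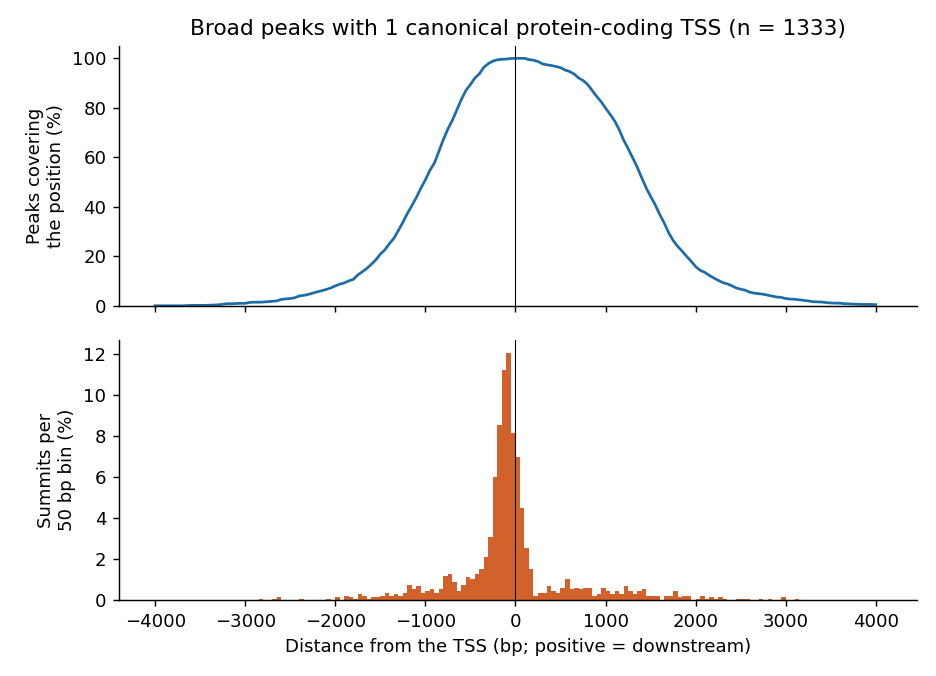
The 1333 broad peaks with 1 canonical protein-coding TSS, by distance from that TSS in bp (x axis). The upper panel gives the share of peaks covering each position (percent) and the lower panel the share of summits in each 50 bp bin (percent). Coverage extends farther downstream, with 79.9% at 1000 bp downstream and 50.9% at 1000 bp upstream, while the summits centre just upstream of the TSS.

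A total of 2020 protein-coding genes had a TSS in a broad peak, which is 10.6% of all 19111 on the autosomes and 16.6% of the 12161 with a TSS in any peak. For 1812 of them it was the TSS of the canonical transcript. Among lncRNA genes, 727 of 18390 (3.95%) had a TSS in a broad peak, and 38 of 1759 miRNA genes did. The protein-coding genes with a broad peak were longer than the other genes with a TSS in a peak, at median lengths of 46.8 and 34.6 kb.

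Many broad peaks held TSSs of more than 1 gene. A wider interval has more room for the TSS of a further gene, and the narrower classes were not counted in this way. TSSs of 2 or more protein-coding genes lay in 307 broad peaks (12.1%), and 562 (22.2%) held TSSs of both a protein-coding and a lncRNA gene. Another 123 held a TSS of a lncRNA gene and of no protein-coding gene. Of 212 peaks with exactly 2 canonical protein-coding TSSs, the genes pointed away from each other in 173 (81.6%), had the same strand in 29 and faced each other in 10. Examples of divergent pairs were ELOC, which encodes elongin C of the VHL ubiquitin ligase, with TMEM70, and PHTF2 with TMEM60. The number of genes was highest, at 4, in 2 peaks. The peak chr1:149884649-149889220 of 4572 bp held the TSSs of the histone genes H2AC20, H2AC21 and H2BC21 and of BOLA1. The peak chr7:92244700-92247297 of 2598 bp held those of ANKIB1, of KRIT1 and of the overlapping genes ENSG00000285953 and ENSG00000289027.

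The widest peak covered all of DUSP1, an immediate early gene whose product, a phosphatase, inactivates MAP kinases. It spanned 8313 bp (chr5:172764843-172773155, fold 70.6, 59.3 to 83.4), from 1960 bp upstream of the TSS to 6352 bp downstream. Its summit lay not at the promoter but 5782 bp downstream of the TSS, beyond the end of DUSP1. The next widest spanned 7640 bp in PLEC, which encodes the cytoskeletal linker plectin (chr8:143948058-143955697, fold 85.0). A peak of 7088 bp lay at ZC3H12A, which encodes an RNase that degrades inflammatory mRNAs (chr1:37473226-37480313, fold 43.3), and contained the gene of the miRNA MIR6732.

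The peak of 6918 bp at chr11:65887573-65894490 (fold 31.4) joined the starts of CCDC85B and FIBP with the 3′ end of FOSL1, which encodes an AP-1 subunit. FOSL1 itself started in another peak of 1740 bp. The peak of 6642 bp at ACTB, the cytoplasmic actin gene, was the only member of the 10 widest without a TSS (chr7:5520455-5527096, fold 15.5, 10.5 to 22). It reached from downstream of the gene into its annotated 3′ end. The other 5 of the 10 widest contained TSSs of BRI3 (6321 bp, fold 57.2), the cell cycle kinase gene CDK6 (6219 bp, fold 36.1), CDK5 with the anion exchanger gene SLC4A2 (6125 bp, fold 102.5), the sialyltransferase gene ST3GAL1 (6073 bp, fold 79.4) and the metallothionein gene MT2A (6035 bp, fold 53.6).

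The highest broad peaks were not the widest. Folds of 143.8 (127.4 to 161.6, a pileup of 278) were reached by the 2197 bp peak between ELOC and TMEM70 and by a peak of 2750 bp without a TSS, 12.5 kb from the start of ANKRD33B (chr5:10550989-10553738). The peak at HMGCS1, which encodes an enzyme of cholesterol synthesis, followed with a fold of 140.7 and a width of 2178 bp. A peak of 3120 bp, 26.6 kb from the start of CCN1 (chr1:85606055-85609174), and the 2352 bp peak of PHTF2 and TMEM60 both had a fold of 139.6. The intervals of these 5 overlapped, so their order was not resolved at this depth.

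Some broad peaks covered a gene from start to end. This applied to 31 protein-coding genes, 131 lncRNA genes, 35 miRNA genes and 15 snRNA genes. Besides DUSP1 and the histone genes, the protein-coding genes included MT2A, the thymosin gene TMSB10 (4746 bp, fold 41.7), the transcription factor gene CEBPD (4720 bp, fold 36.6), the calcium-binding protein gene S100A6 (3816 bp, fold 39.7) and the Notch target HES4 (3437 bp, fold 28.9). These were chosen after their values were seen. The snRNA genes belong to families with near-identical copies, and reads of low mapping quality had been removed, so their coverage is uncertain. The end of a canonical protein-coding transcript lay in 89 broad peaks (3.52%, 2.84 to 4.31), compared with 1.73% and 0.440% in the narrower classes, and 72 of the 89 also contained a TSS.

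To see which kinds of genes had broad peaks, 21 gene lists were read against the 10.6% of all protein-coding genes. The width of the widest TSS peak was compared as well, whose median over the 12161 genes with one was 1285 bp. No test was made over the lists, and intervals were wide for short lists. The lists also differed in how many genes had a TSS in a peak of any width, which the share over all genes does not separate from width.

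Immediate early genes, which respond to stimuli without new protein synthesis, included DUSP1 with the widest peak. Of 20 listed together with AP-1 genes, 19 had a TSS in a peak and 9 (45.0%, 23.1 to 68.5) in a broad peak, and the median width was 1904 bp. Next to DUSP1, KLF10 had 4841 bp (fold 102.5), JUN, an AP-1 subunit gene, had 4631 bp (fold 91.7), and KLF6 had 4274 bp (fold 22.2). The KLF6 peak lay at a TSS inside the gene, and the canonical TSS of KLF6 was in another broad peak. The JUN peak reached 2251 bp upstream and 2379 bp downstream of the TSS. The TSS peaks of FOS (1183 bp), JUNB (1904 bp) and IER2 (1275 bp) stayed under the threshold.

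Genes of the YAP and TEAD pathway, which relays cell shape and contact to transcription, gave 9 of 20 (45.0%), with a median width of 2100.5 bp. The target CCN1 had 4167 bp (fold 43.8), the co-activator genes WWTR1 and YAP1 had 3204 and 2985 bp, and the upstream regulator PTPN14 had 2855 bp. CCN1 and CCN2 stood in both of these lists, so the lists were not independent.

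Hypoxia and HIF genes gave 13 of 34 (38.2%, 22.2 to 56.4), and 33 of the 34 had a TSS in a peak of any width. NDRG1, a hypoxia-induced gene, had 5030 bp (fold 106.7), and ADM, which encodes the vasodilator adrenomedullin, had 4691 bp (fold 29.9), of which 3403 bp lay upstream of the TSS. The repressor gene BHLHE40 had 3997 bp (fold 54.6) and the glycolytic gene ENO1 3513 bp (fold 26.8). VEGFA, the angiogenic growth factor gene, was at 2238 bp and the oxygen sensor gene EGLN1 at 2202 bp. The factor genes HIF1A (1540 bp) and EPAS1 (1460 bp) were below the threshold. The median width over the list was 1621 bp.

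**Figure D3:**
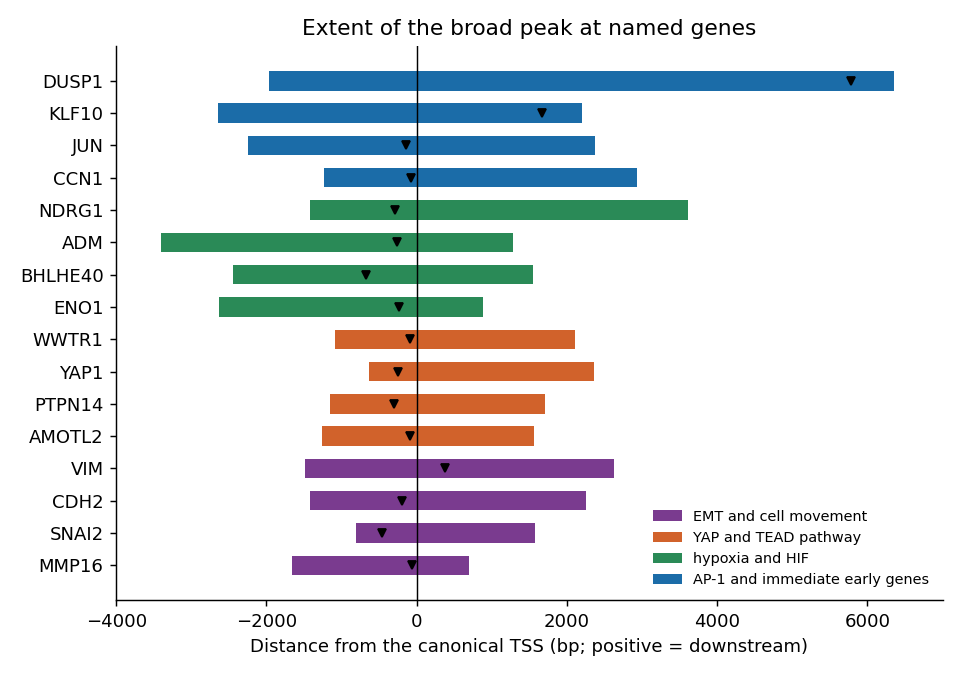
Extent of the broad peak around the canonical TSS (x axis, bp; positive values are downstream) at 16 genes of 4 lists, the 4 widest of each list whose widest peak contained that TSS, with CCN1, a member of 2 lists, drawn once. Black triangles mark the summits. DUSP1 reached 6352 bp downstream, ADM 3403 bp upstream, and the summits of DUSP1, KLF10 and VIM lay downstream of the TSS.

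Genes of epithelial-mesenchymal transition (EMT) and cell movement gave 9 of 29 (31.0%, 15.3 to 50.8) with a median width of 1614 bp. Next to VIM and CDH2, the peak of the smooth muscle actin gene ACTA2 measured 2467 bp (fold 41.2), at a TSS far upstream of the canonical one, and that of the EMT factor gene SNAI2 2384 bp (fold 39.7). With canonical TSSs only, 7 of the 29 remained (24.1%, 10.3 to 43.5). Of the 29 genes, 9 had no TSS in a peak. Among them were CDH1, which encodes E-cadherin, but also the EMT factor genes TWIST1 and TWIST2 and the genes COL1A2 and TAGLN. The others were COL6A3, MMP14, WNT5A and WNT7B, so the closed genes of this list were mostly not epithelial markers. The TGF-beta pathway gave 7 of 34 (20.6%, 8.70 to 37.9), although 30 of its genes had a TSS in a peak. The target ID1 had the widest at 3810 bp (fold 59.3), followed by the signal transducer SMAD3 with 3495 bp (fold 37.6), the ligand gene TGFB2 with 3055 bp at a fold of only 9.28, and the ubiquitin ligase gene SMURF1 with 2847 bp. At SMAD3, TGFB2, SMAD7 and ID2 the TSS was not the canonical one. With canonical TSSs only, 3 of the 34 remained (8.82%, 1.86 to 23.7), compared with 9.48% of all protein-coding genes, so the list did not stand above the background. The receptor genes TGFBR1 (1927 bp) and TGFBR2 (1720 bp) were below the threshold.

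Several genes that the study followed had narrower peaks. None of DPF3, SNAI1, ZEB1, MMP2, COL1A1, WNT7B, TGFB1, SMAD4 and EP300 had a TSS in a broad peak. Their widest TSS peaks measured 1666 bp at SMAD4 (fold 20.6), 1601 bp at ZEB1 (fold 14.4), 1240 bp at COL1A1 (fold 25.8), 1058 bp at SNAI1 (fold 10.8) and 960 bp at EP300 (fold 6.70). Those of TGFB1, DPF3 and MMP2 measured 750, 725 and 545 bp, and WNT7B had none. At COL1A1 and MMP2 the TSS in the peak was not the canonical one. MMP2, which encodes a matrix metalloproteinase, was touched by 1 broad peak of 2391 bp away from its TSSs. Of all protein-coding genes 10.6% had a TSS in a broad peak, so its absence at so few genes cannot be read as a trait of them. Other genes of the study went both ways. MMP16, another matrix metalloproteinase gene, named after its values were seen, had a broad peak of 2350 bp (fold 26.8) at its canonical TSS. The SWI/SNF subunit genes SMARCA2, SMARCD2, SMARCD3 and ARID1A, described next, also had a TSS in a broad peak. COL6A3 had no TSS in a peak. The widest TSS peak of MMP1, not at the canonical TSS, measured 331 bp (fold 5.67). Both were likewise named after their values were seen.

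Among chromatin genes, 6 of 28 SWI/SNF subunit genes (21.4%, 8.30 to 41.0) had a TSS in a broad peak. They were the ATPase gene SMARCA2 (3572 bp, fold 67.0), ARID2 (3126 bp), SMARCD3 (3025 bp), BRD9 (2632 bp), SMARCD2 (2295 bp) and ARID1A (2153 bp). The ARID1A peak lay inside the gene, with its summit 75771 bp downstream of the canonical TSS, which was in no broad peak. The other ATPase gene, SMARCA4, had 1750 bp and PBRM1 had 1247 bp. Chromatin and RNA polymerase II machinery genes gave 6 of 25 (24%, 9.36 to 45.1), led by KMT2E with 4097 bp (fold 83.0). The methyltransferase gene EZH2 had 2591 bp and KDM6B had 2354 bp. Kidney cancer driver genes gave 5 of 20 (25%, 8.66 to 49.1), among them TFEB (3050 bp), PIK3CA (2724 bp), FLCN (2520 bp) and, at the same TSS inside the gene, ARID1A. VHL had 947 bp.

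Of the transcription factor families, the FOX, SOX, TBX, GATA and KLF genes gave 19 of 102 (18.6%, 11.6 to 27.6). KLF genes led with KLF10, KLF9 (4338 bp, fold 74.2), KLF6 (at the TSS inside the gene) and KLF12 (3707 bp). HOX genes gave 7 of 39 (17.9%, 7.54 to 33.5), among them HOXD11 (3665 bp), HOXA2 (3343 bp) and HOXA9 (3184 bp). The other homeobox families gave 5 of 61 (8.20%, 2.72 to 18.1), with IRX5 (3870 bp), IRX3 (3576 bp), PAX8 (2875 bp, fold 113.4) and MEIS1 (2857 bp). Renal lineage factor genes gave 4 of 23 (17.4%, 4.95 to 38.8). They were PAX8, HNF4G (2705 bp), SALL1 (2475 bp) and MECOM (2319 bp), and only at MECOM was it the canonical TSS (1 of 23, 4.35%). Growth factor receptors and their ligands gave 5 of 27 (18.5%, 6.30 to 38.1). They were EPHA2 (3383 bp), EGFR (3082 bp, at a TSS inside the gene), TGFA (2853 bp), IGF1R (2371 bp) and FGFR2 (2027 bp).

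Replication-dependent histone genes, which are short and lie in clusters, gave 22 of 69 (31.9%, 21.2 to 44.2). Their median TSS peak width was 1471 bp. Several histone genes shared a peak, such as H2AC11 with H2BC11 (3394 bp) and H2AC4 with H3C2 (2387 bp), so the count of genes exceeds that of peaks. Solute carrier genes gave 39 of 323 (12.1%, 8.73 to 16.1), close to the share of all genes, led by SLC4A2, SLC12A2 (3765 bp), SLC2A1 (3103 bp, not at the canonical TSS) and SLC22A4 (2882 bp). Of the 179 with a TSS in a peak, 21.8% (16.0 to 28.6) had one in a broad peak, against 16.6% of all such protein-coding genes.

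Of 73 cytosolic ribosomal protein genes, 70 had a TSS in a peak and 7 (9.59%, 3.94 to 18.8) in a broad peak, which is near the 10.6% of all protein-coding genes. Among the 70 the share was 10.0% (4.12 to 19.5), against 16.6% of all protein-coding genes with a TSS in a peak. The median width was 1171 bp. The 4 widest were at RPL7 (2962 bp), RPL30 (2729 bp), RPL12 (2602 bp) and RPL37 (2352 bp). Of 503 ZNF genes, most of which encode zinc finger repressors, 420 had a TSS in a peak and 30 (5.96%, 4.06 to 8.41) in a broad peak, with a median of 1007.5 bp. ZNF131 (5746 bp), ZNF462 (5222 bp), ZNF622 (3894 bp) and ZNF706 (3376 bp) were the widest. Lists of tissue-restricted genes had few peaks at all. Of 42 collagen genes 16 had a TSS in a peak and 2, the divergent pair COL4A1 and COL4A2 (2586 bp), in a broad peak. KRT8 (2574 bp) was the only member of 55 keratin genes with a TSS in a broad peak. None of 415 olfactory receptor genes and none of 17 genes of other cell types had one.

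**Figure D4:**
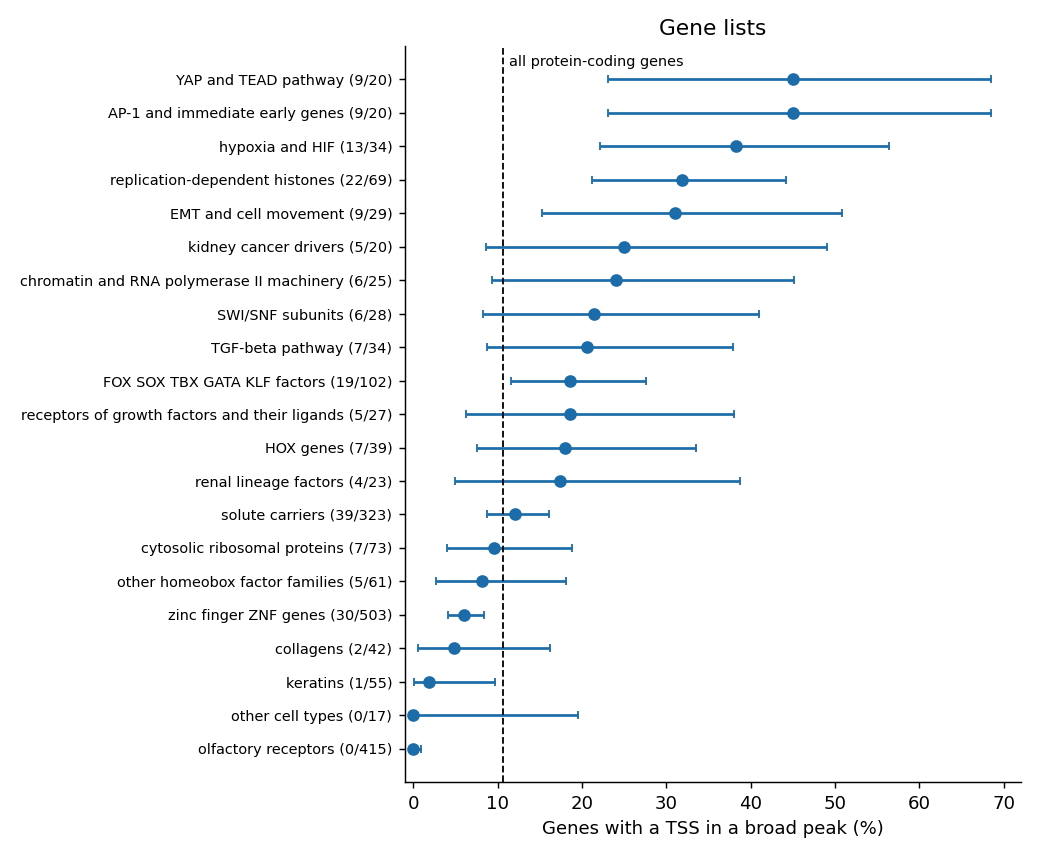
Share of the genes of each list with a TSS in a broad peak (x axis, percent) with exact 95% intervals, and the number of genes with a broad peak of all autosomal genes of the list in parentheses. The dashed line is the share of all protein-coding genes, 10.6%. The lists range from 45.0% for YAP and TEAD pathway genes and for AP-1 and immediate early genes to 1.82% for keratins and to no gene for olfactory receptors and for genes of other cell types.

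Broad peaks away from genes were next described. The widest over 10 kb from any TSS spanned 5190 bp (chr5:14034888-14040077, fold 91.7, 78.8 to 106.2), 23.1 kb from the nearest TSS, of DNAH5. It held 6 matches to the AP-1 letters, and its summit sequence is shown above. The next spanned 3786 bp near DNAJB12 (chr10:72319136-72322921, fold 49.0), 3432 bp on chromosome 8, 115.6 kb from the start of TRIB1 (fold 72.1), 3330 bp near LINC02205 (fold 45.9) and 3106 bp near IFFO2 (fold 66.5). In gene bodies, the ACTB peak was followed by 5791 bp in an intron of BCL9L, which encodes a Wnt co-activator (fold 34.0), and by 5032 bp in an intron of the lncRNA gene PVT1, 141.5 kb from the start of MYC (fold 78.3). A peak of 4970 bp at the 3′ end of the homeobox gene DLX2 (fold 60.8) and one of 4523 bp in an intron of ASAP1 (fold 87.6) came next.

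Broad peaks also lay close to other peaks. The median gap to the nearest peak was 2438.5 bp, compared with 3313 bp and 4739 bp in the narrower classes, and 33.3% had another peak within 1000 bp, compared with 27.2% and 20%. For 281 (11.1%) this included another broad peak within 10 kb. Such neighbours formed 128 runs of 2 or more broad peaks, 18 of them with at least 3. The longest run held 6 broad peaks in 30.1 kb within the lncRNA gene LINC-PINT and at LINC00513 (chr7:130884392-130914469). Their widths were 4361, 2130, 3221, 3708, 3012 and 2595 bp and their folds ranged from 35.0 to 67.5. A run of 5 lay at BRAT1 and LFNG, which encodes a Notch glycosyltransferase, and runs of 4 lay at KLF6 and at BHLHE40.

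Counted per gene with its 1 kb upstream, TRIO, which encodes a guanine nucleotide exchange factor of small GTPases, had the most broad peaks, 9 in 388.8 kb. They spanned 2021 to 4807 bp with folds of 33.0 to 106.1, and 3 contained a TSS. EGFR, the epidermal growth factor receptor gene, had 6, of which 2 contained a TSS. The peak at the EGFR promoter (2562 bp) had the lowest fold of them, 24.7, and an intronic peak of 2005 bp the highest, 88.6. ASAP1, EXT1 and PLEC had 5 each. TRIO lies on chromosome 5, EGFR on chromosome 7, and ASAP1, EXT1 and PLEC on chromosome 8. As described below, these chromosomes had the highest shares of broad peaks, so the counts cannot be read as a trait of the genes alone. All 5 in PLEC contained a TSS, compared with 2 in ASAP1 and 1 in EXT1. Of the other protein-coding genes, 9 had 4 broad peaks, 35 had 3, 168 had 2 and 2119 had 1.

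To compare the sequence at the summits, motif letters were looked for in the 50 bp to each side of every summit, on both strands. The AP-1 letters TGANTCA were present in 11.0% (9.84 to 12.3) of broad peaks, compared with 14.9% (14.3 to 15.5) of the middle class and 21.3% (21.0 to 21.6) of the narrow class. Peaks with and without a TSS differed in this share. Broad peaks with a TSS had the letters in 5.53% (4.54 to 6.65) and those without in 27.7% (24.2 to 31.3). Among peaks with a TSS the shares were 4.87% (4.37 to 5.41) in the middle class and 9.28% (8.60 to 9.98) in the narrow class, so the narrow class exceeded the broad peaks at this position too. The shares in peaks without a TSS were 24.3% (23.3 to 25.3) in the middle class and 22.6% (22.3 to 22.9) in the narrow class. Broad peaks without a TSS were thus not distinguishable from the former and exceeded the latter, but heights were not matched. With and without a TSS together, 23.4% of narrow peaks had the letters between folds of 10 and 20. Between folds of 30 and 50 it was 30.6%, compared with 16.8% of the middle class and 10.9% of broad peaks. Whether broad peaks without a TSS exceed narrow ones of equal height was not tested. In the far intergenic broad peaks the share was 33.0% (23.9 to 43.1). A scrambled version of the letters, TACGNTA, was present in 0.277% of broad peaks.

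The TEAD letters GGAATG showed a like division, with 5.53% (4.54 to 6.65) of broad peaks with a TSS and 13.4% (10.8 to 16.3) of those without, compared with 12.4% and 10.1% of peaks without a TSS in the narrower classes. The RUNX letters TGTGGTT were at 2.26% and 6.68% of broad peaks with and without a TSS. The SP/KLF letters GGGGCGGGG, typical of CpG-rich promoters, were at 7.21% (6.09 to 8.47) of broad peaks with a TSS, compared with 7.89% and 6.13% in the narrower classes with a TSS, and at 0.636% of broad peaks without. The NFY letters CCAATNNG were at 7.63%, 5.52% and 3.12% of all peaks from the broadest class to the narrowest. In the same order they were at 8.85%, 8.43% and 5.71% with a TSS and at 3.97%, 2.77% and 2.83% without. The CTCF pattern was rarer at broad summits, with 1.07% (0.705 to 1.55), than at summits of the narrow class, with 4.24% (4.09 to 4.39), and did not differ from the 1.02% of the middle class beyond counting error. The HRE letters NACGTGC, which hypoxia-inducible factors bind, were at 3.36% (2.69 to 4.14) of broad peaks, 2.69% (2.43 to 2.98) of the middle class and 1.73% (1.64 to 1.83) of the narrow class. In the same order they were at 3.84% (3.03 to 4.81), 3.26% (2.85 to 3.71) and 2.49% (2.13 to 2.88) with a TSS. Without a TSS the shares were 1.91% (0.990 to 3.31), 2.16% (1.83 to 2.53) and 1.65% (1.55 to 1.75). There broad peaks were not distinguishable from either narrower class.

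**Figure D5:**
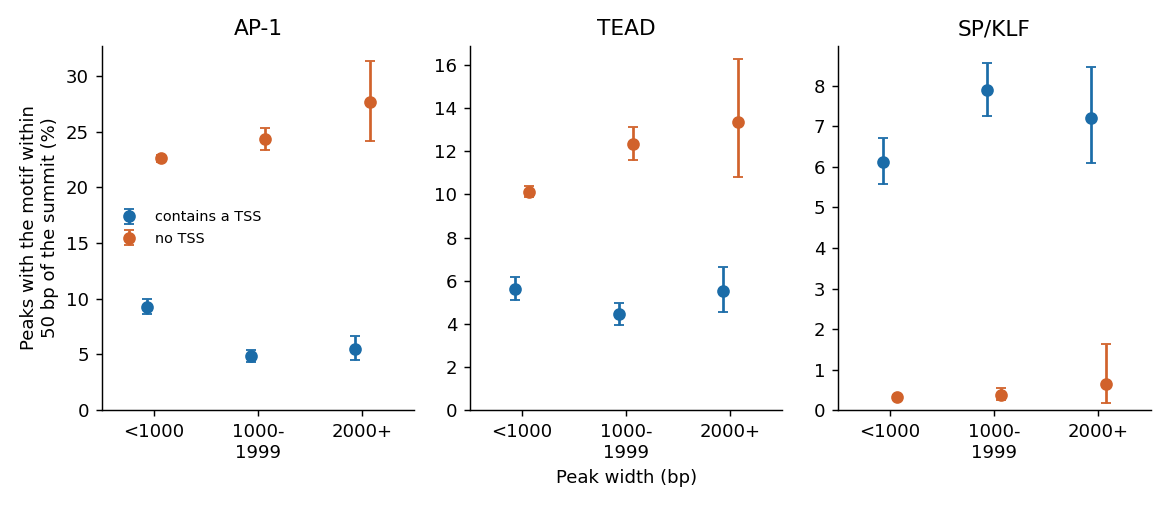
Share of peaks with the AP-1, TEAD or SP/KLF letters within 50 bp of the summit (y axes, percent, each from 0) by width class in bp (x axis), with exact 95% intervals. Peaks with a TSS are blue and peaks without are orange. In broad peaks AP-1 stood at 5.53% with and 27.7% without a TSS, and SP/KLF at 7.21% and 0.636%.

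Broad peaks were spread unevenly over the chromosomes. Their share among all peaks ranged from 1.24% (0.841 to 1.77) on chromosome 19 to 3.87% (3.38 to 4.41) on chromosome 7, with 3.85% on chromosome 8 and 3.71% on chromosome 5. These 3 chromosomes held 600 broad peaks (23.7%, 22.1 to 25.4) but 18.3% (18.0 to 18.5) of all autosomal peaks. The median folds of their broad peaks were 46.4, 45.9 and 51.8 on chromosomes 5, 7 and 8, above the median of 37.6 for all broad peaks. Of the 10 widest peaks, all but those at ZC3H12A, at CCDC85B with FIBP and at MT2A lay on these chromosomes. The 5 genes with most broad peaks lay there too. More open chromatin and more DNA copies cannot be told apart in this list. When the same share of peaks was taken as broad on each chromosome, 75.04% contained a TSS, so the position of broad peaks at genes did not rest on these chromosomes.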

How the data were processed

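ATAC-seq was performed on 786-O cells with an empty vector, in 1 library. According to the study's methods and the submitters' processing notes, the authors used fastp for trimming and Bowtie2 2.3.4.3 for alignment to hg38, removed mitochondrial reads, duplicates and reads with a mapping quality under 30, and called peaks with MACS2 2.2.6 against a genome-wide background. A shift to the Tn5 cutting site is not stated. The deposited ratio is the fold at the summit. The deposited score and −log10 p- and q-values follow from the same pileup and were not used further, except for 1 alternative with a minimum score. From a background pileup of 0.941, the folds gave whole pileups to within 1.69e-05. The lowest was 9 (fold 5.15), and the lowest score was 52. Intervals of a fold are exact Poisson intervals of its pileup. The total number of reads is unknown.

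Broad peaks were selected on width, which rises with read depth. The rule, the gene lists, the motifs and the chromosomes grouped together were chosen with earlier results of these data known. Named were the 10 widest peaks, the 5 highest, those with the most genes, the 5 widest per class without a TSS in gene bodies and far from genes, peaks at the threshold, the 4 widest of each list, the study's genes and the 5 genes with most broad peaks; exceptions are stated, and a few of the items so named are not reported here. Reference sequence was hg38, and annotation GENCODE release 44. Python 3.11.15, numpy 2.4.6, pandas 2.3.3, scipy 1.17.1, pysam 0.24.0 and matplotlib 3.10.9 were used, and the position and motif functions were tested on simulated data. Peaks on the sex chromosomes and on unplaced sequences were outside the rule.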

Additional observations from a re-analysis of the deposited data

Results flagged for a closer look

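Outside the rule, which was limited to chromosomes 1 to 22, chromosome X held 34 peaks of at least 2000 bp among its 2236 peaks (1.52%, 1.06 to 2.12), the widest of 6383 bp. They were noted because they belong to data that no comparison above used.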

How the results depend on the processing

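With a minimum width of 1500 bp, 6431 peaks were broad, 67.3% contained a TSS, 60.0% had the summit at a promoter, 23.7% of protein-coding genes had a TSS in one, the median GC content was 56.9%, and 20.8% lay on chromosomes 5, 7 and 8. With 3000 bp, 440 peaks were broad, 82.0% contained a TSS, 59.3% had the summit at a promoter, 1.90% of genes were covered, 9.55% had the AP-1 letters and 32.3% lay on those chromosomes. With canonical TSSs only, 68.1% contained a TSS, 53.1% had the summit at a promoter and 9.48% of genes were covered, and with protein-coding genes only the shares of peaks and of summits were 69.5% and 59.1%. A promoter of 1 kb or 2.5 kb to both sides gave 69.5% and 77.7% of summits. An AP-1 search 100 bp to each side gave 18.6%. Without chromosomes 5, 7 and 8, 9.62% of genes were covered and the median GC content was 58.2%. The widest peaks of each chromosome placed 18.3% on those 3 by construction. The other 12 of 35 alternatives stayed within the interval of the reported value or, for the number of peaks, within 1.5 times of it.

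The number of broad peaks is thus set by the threshold. With 1 library, biological and technical variation could not be estimated, and depth limits which low peaks reach 2000 bp. No paired analysis was possible because no group shares replicate numbers with another.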
